A study of Homo sapiens with 13 samples.

Results

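The TFAP2 genes encode the AP-2 transcription factors, and their members were taken by gene name from both count tables: the 5 factor genes TFAP2A, TFAP2B, TFAP2C, TFAP2D and TFAP2E, and the antisense genes TFAP2A-AS1 and TFAP2A-AS2, which makes 7 of 61546 features listed. They were followed in RUES2, a human embryonic stem cell line, carrying a GFP::SMAD4 fusion in every library, so that the shared signal transducer of the BMP and Nodal pathways is tagged with a fluorescent protein. In the time series, 7 libraries of rRNA-depleted RNA covered cells in 100 ng/mL BMP4, 5 µM IWP2 (a blocker of Wnt ligand secretion) and ROCK inhibitor, with 2 libraries at 0 h and 1 library at each of 5 later times up to 42 h. Both 0 h libraries carry that treatment in their labels too, and were read as cells collected when it began. In the dose response, 6 polyA-selected libraries covered 5 h in the same BMP4, IWP2 and ROCK inhibitor with LDN-193189, an inhibitor of BMP type I receptors, at 0, 10, 30, 100 or 300 nM, and cells of 5 h labelled with mTeSR medium alone, called untreated here.

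AP-2 proteins bind DNA as dimers at a GC-rich palindrome, and all 5 share the DNA-binding and dimerization region, so members that are present together can pair. TFAP2A is known for its place in surface ectoderm and neural crest, TFAP2C for trophoblast, germ cells and the naive pluripotent state, TFAP2B for kidney, limb and neural crest derivatives, TFAP2D for midbrain and retina, and TFAP2E for the olfactory bulb. TFAP2A and TFAP2C are also read as early markers of amnion-like cells that form when human pluripotent cells receive BMP without Wnt. The comparisons ask how each member follows the time after BMP4 and the strength of signaling that LDN leaves.

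Totals were 37957385 to 71333471 counts in the time series and 15600931 to 33989998 in the dose response, the lowest being the untreated library. Mitochondrial genes took 7.89% of the untreated counts against 4.22% to 4.49% in the other dose libraries, and 7.60% of 0 h replicate 1 against 4.29% of replicate 2; the part of this in any level was not tested. As a check of the labelled cell type, the 0 h libraries (n = 2) held genes of the pluripotent state. POU5F1 had a mean of 1328 CPM (SD 486), SOX2 of 373 CPM (SD 12.7) and NANOG of 128 CPM (SD 21.9). POU5F1 was at 1319 CPM at 42 h as well, so its level does not separate these times. Levels below are CPM, the counts of a gene relative to its library's size, with sizes scaled by TMM within each experiment, with 95% Poisson intervals that cover counting error only. Levels of different genes were compared only in the deposited FPKM, which divides by gene length. In bulk RNA, fewer cells that express a gene and less RNA per cell cannot be told apart.

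TFAP2A lies on the minus strand at chr6:10393186-10419659 (GRCh38, GENCODE 44), and both antisense genes lie inside its span on the plus strand. TFAP2A-AS2 is a single-exon lncRNA at chr6:10404502-10407928, with 941 of its 3427 exonic bases (27.5%) inside TFAP2A exons. TFAP2A-AS1, a lncRNA at chr6:10409340-10416446, shares 438 of 1692 exonic bases (25.9%). The remaining factor genes are TFAP2C at chr20:56629306-56639283, TFAP2E at chr1:35573314-35595328, TFAP2D at chr6:50713526-50773033 and TFAP2B at chr6:50818723-50847619, all on the plus strand. TFAP2E overlaps TFAP2E-AS1, also an antisense lncRNA, by 110 exonic bases. Whether the counting used strand is not given in the sources used here, so reads from the shared bases cannot be assigned to 1 strand. The other bases of both TFAP2A antisense genes lie in TFAP2A introns. Without strand, reads of unspliced TFAP2A RNA could be counted there as well. The part of such reads in the antisense levels and ratios below was not tested.

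The promoter windows are shown for the members that passed 1 CPM in some library and have an entry in the RefSeq table, because all of them were higher at 42 h than at 0 h by their counts. Each window runs from 250 bases before to 50 bases after a RefSeq start on GRCh38.p14, written 5′ to 3′ on the strand of the gene. Capitals mark the letters GTCTG, known as the SMAD box, and TATAAA, the TATA box, on either strand. The first TFAP2A window is chr6:10419610-10419909 (minus) and the second chr6:10412342-10412641 (minus). The TFAP2A-AS1 window is chr6:10412068-10412367 (plus), which overlaps the second TFAP2A window head to head. The others are TFAP2A-AS2 at chr6:10404252-10404551, TFAP2E at chr1:35573064-35573363 and TFAP2B at chr6:50818621-50818920, all plus.
TFAP2A, first start: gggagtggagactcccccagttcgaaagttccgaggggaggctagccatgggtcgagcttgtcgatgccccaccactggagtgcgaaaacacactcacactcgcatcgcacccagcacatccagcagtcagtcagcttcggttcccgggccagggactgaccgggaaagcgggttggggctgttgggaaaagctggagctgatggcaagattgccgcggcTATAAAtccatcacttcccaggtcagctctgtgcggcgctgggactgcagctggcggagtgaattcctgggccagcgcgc
TFAP2A, second start: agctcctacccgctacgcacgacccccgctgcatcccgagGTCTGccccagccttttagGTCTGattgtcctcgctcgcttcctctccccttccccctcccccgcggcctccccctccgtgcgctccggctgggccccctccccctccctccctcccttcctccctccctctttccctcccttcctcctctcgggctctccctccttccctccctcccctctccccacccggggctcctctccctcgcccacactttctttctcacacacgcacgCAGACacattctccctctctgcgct
TFAP2A-AS1: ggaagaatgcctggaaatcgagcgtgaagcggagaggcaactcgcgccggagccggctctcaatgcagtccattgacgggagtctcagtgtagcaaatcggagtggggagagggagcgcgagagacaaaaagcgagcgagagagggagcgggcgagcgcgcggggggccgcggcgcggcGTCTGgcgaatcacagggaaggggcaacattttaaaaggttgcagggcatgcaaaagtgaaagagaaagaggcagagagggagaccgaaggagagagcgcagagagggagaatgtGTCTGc
TFAP2A-AS2: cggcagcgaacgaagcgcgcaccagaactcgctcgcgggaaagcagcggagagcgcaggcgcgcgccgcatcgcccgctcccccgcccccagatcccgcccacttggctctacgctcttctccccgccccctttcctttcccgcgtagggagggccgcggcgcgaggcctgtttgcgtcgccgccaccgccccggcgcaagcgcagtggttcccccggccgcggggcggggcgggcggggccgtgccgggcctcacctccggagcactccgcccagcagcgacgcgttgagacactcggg
TFAP2E: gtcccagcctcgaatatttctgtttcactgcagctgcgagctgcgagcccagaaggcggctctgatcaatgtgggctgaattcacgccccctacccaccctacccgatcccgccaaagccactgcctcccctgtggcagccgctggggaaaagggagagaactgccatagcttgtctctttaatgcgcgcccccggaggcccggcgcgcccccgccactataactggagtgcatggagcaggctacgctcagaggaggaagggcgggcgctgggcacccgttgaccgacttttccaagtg
TFAP2B: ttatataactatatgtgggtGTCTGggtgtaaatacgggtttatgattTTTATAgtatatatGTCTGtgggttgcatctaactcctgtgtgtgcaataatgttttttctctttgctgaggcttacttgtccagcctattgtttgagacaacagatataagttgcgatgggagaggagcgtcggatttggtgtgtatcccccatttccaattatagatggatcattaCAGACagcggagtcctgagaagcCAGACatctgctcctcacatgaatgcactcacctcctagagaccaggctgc

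The first TFAP2A start has a TATA box 30 bases upstream, and the second start has none. GTCTG or its complement occurred 3 times in the second TFAP2A window, 2 times in that of TFAP2A-AS1 and 4 times in that of TFAP2B, and was not found in the first TFAP2A window or in those of TFAP2A-AS2 and TFAP2E. Of all 35116 windows in the table, 45.3% held GTCTG and 11.5% held TATAAA. The AP-2 palindrome GCCNNNGGC was in none of the 7 windows of the 6 members with an entry, against 23.2% of all windows, and the SMAD motif GGCGCC was also in none, against 19.2%. These matches describe letters in windows of 300 bases. TFAP2C was not in the table.

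TFAP2A was close to absent in cells at 0 h and became the most abundant member within 4 h of BMP4. It measured 0.155 and 0.136 CPM in the 0 h libraries (6 and 10 counts, mean 0.146 ± 0.013 SD, n = 2). Over the 5 later libraries, from 4 h to 42 h in order of time, it measured 42.1, 162, 313, 357 and 423 CPM. Each later library was higher than the one before, with no overlap of the counting intervals. Against both 0 h libraries, the ratio was 295-fold at 4 h (counting interval 181 to 517) and 2961-fold at 42 h (1823 to 5181).

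TFAP2C, in contrast, was already present at 0 h and rose later. Its level was 10.0 and 10.1 CPM in the 0 h libraries (387 and 740 counts, mean 10.0 ± 0.049 SD, n = 2), and 39.6, 55.6, 129.5, 243 and 203 CPM in the later libraries, again in order of time. The highest level was at 28 h, and the 42 h library was 0.835 times as high (counting interval 0.815 to 0.857). The rise over 0 h was 3.93-fold at 4 h (3.65 to 4.24) and 24.2-fold at 28 h (22.7 to 25.7). TFAP2A passed its half-rise, interpolated between libraries, at 14.6 h and TFAP2C at 19.7 h.

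TFAP2E was low throughout and, like TFAP2C, highest at 28 h. It measured 0.906 and 0.599 CPM at 0 h (35 and 44 counts), followed by 2.24, 2.67, 4.60, 6.65 and 3.54 CPM. The intervals of 4 h and 12 h overlapped, and so did those of 42 h with 12 h and with 20 h. TFAP2E-AS1 reached at most 36 counts (0.677 CPM, at 42 h).

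TFAP2B came last and TFAP2D was not detected. TFAP2B had 1 count in each 0 h library and then, in order of time, 0, 1, 16, 44 and 195 counts, the last being 3.67 CPM (3.17 to 4.22). Its half-rise was at 33.2 h, and between 28 h and 42 h it rose 4.80-fold by the counts (3.45 to 6.83). TFAP2D had 0 counts in all 13 libraries, and the limit of 3 counts was 0.041 CPM in the deepest library and 0.202 CPM in the untreated one.

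Both antisense genes were higher than at 0 h from 4 h on. TFAP2A-AS2 measured 0.336 and 0.272 CPM at 0 h (13 and 20 counts), then 5.61, 15.5, 23.7, 23.4 and 22.4 CPM from 4 h to 42 h. From 20 h on its intervals overlapped, while TFAP2A went on from 313 to 423 CPM. TFAP2A-AS1 had 0 counts in both 0 h libraries and measured 2.03, 3.50, 5.82, 4.81 and 6.27 CPM afterwards, at least 76.0-fold and at least 234-fold above a limit of 3 counts over both 0 h libraries at 4 h and 42 h. TFAP2A-AS1 was highest at 42 h with TMM, 1.3-fold above 28 h (1.11 to 1.53). Its 20 h and 42 h intervals overlapped (5.23 to 6.46 and 5.61 to 6.98 CPM). With library totals and in FPKM the 20 h library was the highest (5.81 against 5.44 CPM at 42 h with totals). The half-rises were at 9.17 h for TFAP2A-AS2 and 9.99 h for TFAP2A-AS1, both before that of TFAP2A. For every 100 TFAP2A counts there were 13.3 TFAP2A-AS2 counts at 4 h (11.7 to 15.1), and then 9.53, 7.56, 6.57 and, in the 42 h library, 5.30 (5.0 to 5.62). TFAP2A-AS1 went from 4.83 (3.91 to 5.91) to 1.48 (1.33 to 1.65) over the same times.

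**Figure D1:**
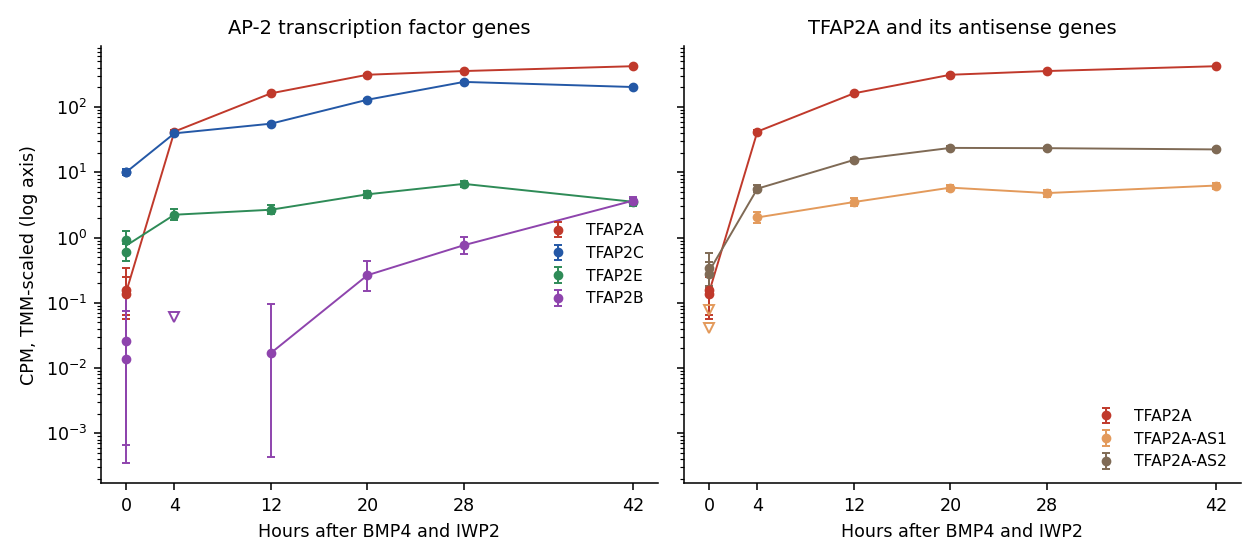
Level of the detected TFAP2 genes (CPM, TMM-scaled, log axis) against hours after BMP4 and IWP2, for the factor genes on the left and TFAP2A with its antisense genes on the right. Points are libraries with 95% Poisson intervals, lines join the values above 0 (mean of both libraries at 0 h), and open triangles mark the level of 3 counts where a library had none. TFAP2A climbs most steeply between 0 h and 4 h and reaches 423 CPM at 42 h, and TFAP2B has more than 1 count from 20 h on. CPM is not divided by gene length, so heights compare libraries and not genes.

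The test across genes was edgeR's quasi-likelihood test over the 7 libraries with Benjamini-Hochberg adjustment over the 15976 genes of at least 1 mean CPM. The later times have 1 library each, so the error came from the 0 h pair (1 residual degree of freedom) and from the spread shared across genes. Of the 7 members, 5 entered the test (TFAP2B and TFAP2D were under the minimum), and all 5 were higher than at 0 h at every time. The share of all genes called higher was 4.39%, 7.04%, 12.4%, 13.3% and 19.9% from the first to the last of these times. TFAP2A, TFAP2E, TFAP2A-AS1 and TFAP2A-AS2 were under 1 CPM in both 0 h libraries and met the minimum through their later levels. Their number among the tested genes is therefore no independent support for a rise. TFAP2A changed by 8.18 ± 0.45 on the log2 scale (SE, edgeR adjusted p = 4.21e-71) at 4 h and by 11.50 ± 0.47 (adjusted p = 1.49e-124) at 42 h. By size of change it stood 7th among the genes tested at 4 h, 4th in both libraries that followed, 6th at 28 h and 17th at 42 h. TFAP2C changed by 1.98 ± 0.32 (adjusted p = 7.35e-08) at 4 h and by 4.60 ± 0.34 (adjusted p = 3.50e-40) at 28 h. TFAP2E had the smallest change, 1.60 ± 0.44 (adjusted p = 0.0064) at 4 h, and this call was lost with DESeq2 (adjusted p = 0.231) and with limma on FPKM (adjusted p = 0.114). At 42 h, 3173 genes were called higher and 2851 lower with TMM, and 2415 and 3963 with library totals, which moved the median of all genes from -0.01 to -0.25; all 5 members stayed called higher.

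Between successive libraries, the calls were fewer. From 4 h to 12 h, TFAP2A rose by 1.95 ± 0.40 (edgeR adjusted p = 0.0003) and TFAP2A-AS2 by 1.46 ± 0.37 (adjusted p = 0.0093), where 0.782% of genes were called higher. From 12 h to 20 h no tested member passed, although 2 (TFAP2A and TFAP2C) had an unadjusted p under 0.05 in edgeR, with TFAP2C nearest at 1.22 ± 0.39 (adjusted p = 0.0737), beside 1.62% of genes called higher. Nor did any tested member pass from 20 h to 28 h or from 28 h to 42 h, where 0.920% and 3.14% of genes were called higher and 1 (TFAP2C) and 0 members had an unadjusted p under 0.05. These steps were tested with edgeR alone. The TFAP2C change from 28 h to 42 h was -0.26 ± 0.38 (adjusted p = 0.869), that of TFAP2E -0.91 ± 0.47 (adjusted p = 0.290). With no minimum level TFAP2B was tested too, and was called higher from 12 h to 20 h (adjusted p = 0.0360) and from 28 h to 42 h (2.33 ± 0.54, adjusted p = 0.0010).

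A straight line in hours over the 7 libraries was called for TFAP2C, at 0.112 ± 0.021 log2 units per hour (edgeR adjusted p = 0.0045), and for TFAP2E, at 0.063 ± 0.020 (adjusted p = 0.0433), among 19.2% of genes called rising. TFAP2A (0.164 ± 0.074, adjusted p = 0.114), TFAP2A-AS1 (adjusted p = 0.155) and TFAP2A-AS2 (adjusted p = 0.0839) did not pass. The scatter about the line, which includes curvature, is the error here, so a missed call does not mean a smaller rise. TFAP2A was 8.18 log2 units above 0 h at 4 h and 11.50 at 42 h. The line of TFAP2E rested on single libraries: leaving out either 0 h library or the 4, 12, 20 or 28 h library took its adjusted p to between 0.0568 and 0.133, and scaling by library totals to 0.0715. With time on a log scale all 5 tested members passed.

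At 5 h, the response to LDN was graded for both abundant members, and it spanned a wider range for TFAP2A than for TFAP2C. TFAP2A measured 44.3 CPM without LDN and 27.4, 13.4, 3.62 and 0.542 CPM as the dose went up from 10 to 300 nM, with 0 counts in untreated cells. Every step was downward, with no overlap of intervals, and each step was larger than the one before: 1.61-fold (1.48 to 1.76), 2.04-fold (1.82 to 2.29), 3.70-fold (3.0 to 4.60) and 6.69-fold (4.05 to 11.7), the intervals of the last pair of steps overlapping. The whole range from 0 nM to 300 nM was 81.7-fold (51.5 to 138). Against a limit of 3 counts in the untreated library, TFAP2A was at least 219.6-fold higher without LDN and at least 2.69-fold higher at 300 nM (18 counts).

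TFAP2C measured 41.5 CPM without LDN, 34.3, 24.2, 12.6 and 7.80 CPM with rising dose, and 6.18 CPM in untreated cells. The levels fell in the order of the doses, and the ratio from 0 nM to 300 nM was 5.32-fold (4.64 to 6.10). The 300 nM level was 1.26 times that of untreated cells, with a counting interval of 0.991 to 1.62 that includes equal levels. Over all BMP4-treated libraries, edgeR's trend per dose step (steps 0 to 4) was -1.23 ± 0.095 on the log2 scale for TFAP2A (adjusted p = 1.83e-06) and -0.60 ± 0.043 for TFAP2C (adjusted p = 9.72e-07). Of 14907 genes tested, 10.9% were called lower with more LDN, and TFAP2A had the 4th steepest slope and TFAP2C the 72nd. The difference between their slopes was not tested.

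The less abundant members were counted in few reads at 5 h. TFAP2E had 33, 21, 18, 8 and 9 counts from 0 to 300 nM and 2 in untreated cells, and its intervals at neighbouring doses overlapped. TFAP2A-AS2 had 35, 27, 10, 11 and 5 counts and 1 in untreated cells. TFAP2A-AS1 had 6, 3 and 2 counts at 0, 10 and 30 nM and 0 in the other libraries. TFAP2B and TFAP2D had 0 counts in all 6. These 5 members fell below the minimum of 1 mean CPM. When no minimum was applied, TFAP2E (-0.54 ± 0.14, edgeR adjusted p = 0.0049) and TFAP2A-AS2 (-0.71 ± 0.14, adjusted p = 0.0004) were also called lower with more LDN.

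**Figure D2:**
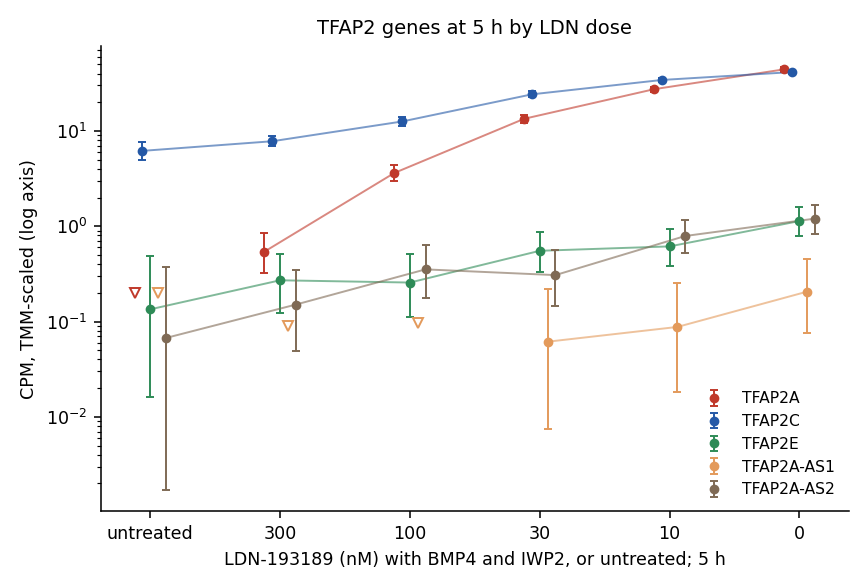
Level (CPM, TMM-scaled, log axis) of 5 TFAP2 genes at 5 h in untreated cells and with BMP4, IWP2 and LDN-193189 from 300 to 0 nM. Points are single libraries with 95% Poisson intervals, shifted sideways for legibility, and open triangles mark the level of 3 counts where a library had none. TFAP2A goes from 0.542 CPM at 300 nM to 44.3 CPM at 0 nM, and TFAP2C from 6.18 CPM in untreated cells to 41.5 CPM at 0 nM.

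Expressed as the part of the rise over untreated cells that was left, TFAP2A kept 62.0%, 30.3%, 8.19% and 1.22% at the doses 10, 30, 100 and 300 nM. TFAP2C kept 79.7%, 51.2%, 18.1% and 4.58%. The counting intervals of these shares, with the untreated and 0 nM levels held fixed, did not overlap at 10, 30 and 100 nM. At 300 nM the TFAP2A interval ended at 1.93% and that of TFAP2C began at 1.97%. That gap leaves out the counting error of the untreated level. With it, the TFAP2C ratio of 300 nM over untreated had an interval of 0.991 to 1.62, which includes no rise. Interpolated on a log dose scale, 50% of the rise was left at 15.1 nM for TFAP2A and at 31.3 nM for TFAP2C. Among the 14877 genes of at least 1 mean CPM in the 6 libraries, 783 (5.26%) were at least 2-fold higher at 0 nM than in untreated cells, TFAP2A and TFAP2C among them. Over the 206 that were at least 4-fold higher, the median share left was 72.8%, 48.2%, 27.6% and 13.2% at the same doses. Counted from the lowest share, TFAP2A stood 54th, 26th, 18th and 25th of 206, and TFAP2C 129th, 116th, 60th and 54th. All these shares rest on 1 untreated library, the shallowest, and no test was possible.

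**Figure D3:**
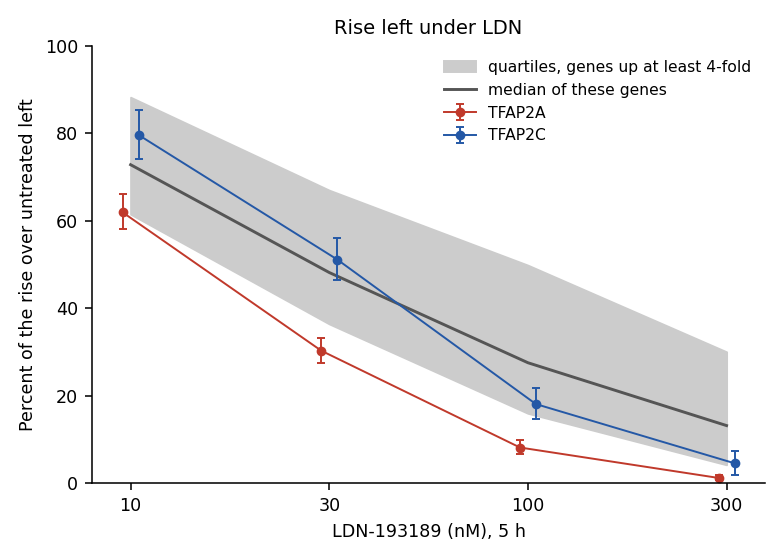
Percent of the rise from untreated to 0 nM LDN that was left at 10, 30, 100 and 300 nM (5 h), for TFAP2A and TFAP2C with 95% counting intervals, beside the median (line) and quartiles (band) of the 206 genes at least 4-fold higher at 0 nM. TFAP2A lies below the lower quartile from 30 nM on, and TFAP2C goes from above the median at 10 nM to near the lower quartile at 300 nM.

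Levels per gene length show how the makeup of the family changed. In the deposited FPKM, TFAP2C made up 90.2% and 91.3% of the summed factor genes at 0 h, and TFAP2A 1.57% and 1.56%. By 4 h the shares were 34.4% and 63.3%, and at 12 h they were 17.9% and 81.1%. TFAP2A thus went from 0.017 times the TFAP2C FPKM at 0 h to 1.84 times at 4 h, and then 4.53, 3.48, 1.99 and 2.67 times. The sum of the factor genes went from 5.11 and 4.50 FPKM at 0 h to 49.2, 133, 243, 294 and 280.0 FPKM. TFAP2E held 7.24% and 7.11% at 0 h and 0.539% at 42 h, and TFAP2B 0.314% at 42 h.

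The makeup also differed between the LDN doses at 5 h. TFAP2A was 1.68 times the TFAP2C FPKM at 0 nM, 1.27 times with the lowest dose, equal at 30 nM (9.50 FPKM each), and 0.701 and 0.203 times with the highest doses, and was listed at 0 in untreated cells. As a share of the summed counts of both genes, TFAP2A held 51.6% at 0 nM (exact binomial interval 49.7% to 53.6%), then 44.4%, 35.6%, 22.4% and, with 300 nM, 6.50% (3.90% to 10.1%). The order of the doses was the same on both scales. The 4 h library of the time series (1.84 times) and the 5 h library at 0 nM (1.68 times) were prepared with different kits and RNA selection, and are only set side by side.

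**Figure D4:**
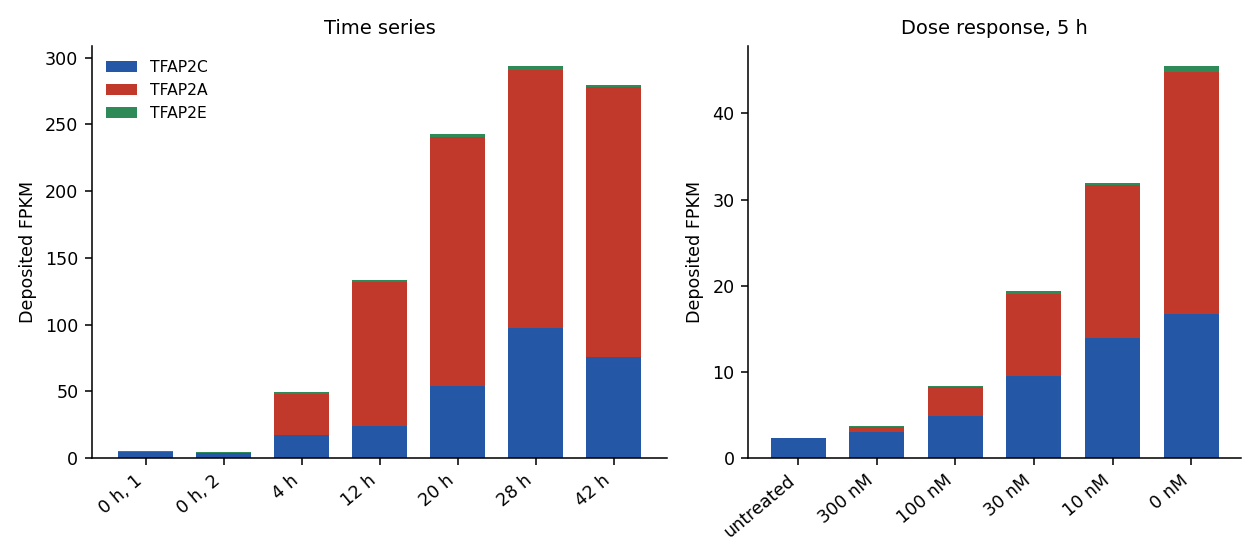
Deposited FPKM of TFAP2C, TFAP2A and TFAP2E stacked for each library of the time series (left, both 0 h libraries shown) and of the 5 h dose response (right), with linear axes of different range. TFAP2C makes up nearly all of the bar at 0 h and in untreated cells, and TFAP2A the larger part from 4 h on and at 0 and 10 nM LDN.

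The antisense genes took a smaller share in polyA-selected RNA. At 0 nM, TFAP2A-AS2 had 2.72 counts per 100 TFAP2A counts (1.88 to 3.80), against 13.3 in rRNA-depleted RNA at 4 h, and TFAP2A-AS1 had 0.466 (0.171 to 1.02) against 4.83. RNA selection, extraction kit and time differ together between these libraries, and their parts in the difference cannot be told apart. Toward high LDN the counts of TFAP2A-AS2 per 100 TFAP2A counts were 2.88, 2.29, 9.73 (4.73 to 18.1) and 27.8 (8.06 to 77.6), the last from 5 and 18 counts.

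The length that counts and FPKM together imply differed between libraries for TFAP2A. RSEM, which estimated both, averages this length over the transcripts of a gene by their estimated use, so a longer value goes with more reads on longer transcripts. It was computed after the levels had been seen, in libraries with at least 100 counts. For TFAP2A it was 1468, 1584, 1670, 1796 and 1819 bases from 4 h to 42 h. At 5 h it was 1594 bases without LDN and 1557, 1414 and 1069 bases with 10, 30 and 100 nM, the last from 113 counts. The value was thus longer at later times and shorter with more LDN.

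TFAP2C was between 2212 and 2605 bases in all libraries with enough counts, and its 0 h replicates, at 2212 and 2524 bases, differed 1.14-fold. The TFAP2A ratio of 42 h over 4 h was 1.24, with a higher ratio in 259 of the 12358 genes of at least 100 counts and 1 FPKM in both libraries (median 0.996). Its ratio of 100 nM over 0 nM was 0.671, with a lower ratio in 57 of 12067 genes (median 1.002). No replicate gives an error for the TFAP2A ratios, and transcript tables were not used here. The share of the TFAP2A rise left at 30 nM was 33.8% in FPKM against 30.3% in CPM. At 100 nM, where the length was shortest, TFAP2A was at 3.40 FPKM against 28.1 without LDN. In CPM these levels were 3.62 and 44.3, so the share left was again larger in FPKM. The shares left that are given above in CPM thus depend on the unit.

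**Figure D5:**
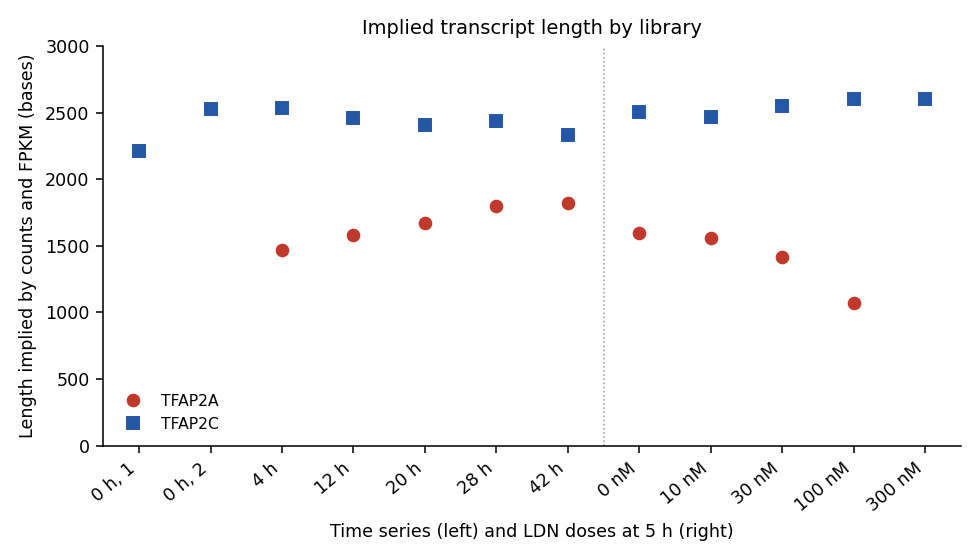
Transcript length (bases) implied by the deposited counts, FPKM and library total for TFAP2A (circles) and TFAP2C (squares), in libraries with at least 100 counts of the gene, from the time series (left of the dotted line) and the dose response at 5 h (right). TFAP2A goes from 1468 bases at 4 h to 1819 at 42 h and from 1594 at 0 nM to 1069 at 100 nM LDN, while TFAP2C lies between 2212 and 2605, with its 0 h replicates at 2212 and 2524.

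The genes whose profile was most like that of TFAP2A were, by Pearson's r over 12 points (6 times and 6 dose libraries, each experiment centred on its mean log2 CPM) among 14563 genes, GATA2 (0.997), GATA5 (0.996), GATA3 (0.995), SMAD6 (0.994) and FZD1 (0.994). GATA2, GATA3 and GATA5 encode zinc finger transcription factors, SMAD6 an inhibitor of BMP signaling and FZD1 a Wnt receptor. At 0, 4 and 42 h, GATA2 measured 1.03, 91.6 and 532 CPM and GATA3 0.173, 42.0 and 370.4 CPM. For TFAP2C they were SERPINB8 (0.985), CHD3 (0.983), TMEM154 (0.982), MOK (0.982) and ANXA9 (0.981). CHD3, a chromatin remodeler of the NuRD complex, went from 25.1 CPM at 0 h to 108.5 at 42 h. TFAP2A and TFAP2C had r = 0.938 with each other, and TFAP2C ranked 111th among the genes most like TFAP2A. The points share libraries, depth and the response of the whole culture, and these values are descriptions.

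Among genes whose proteins bind or regulate AP-2 factors, CITED2 and KCTD1 rose by 42 h and CITED1 fell, the last between levels under 1 CPM. Of 12 cofactors and inhibitors, all tested, 5 were higher and 1 lower at 42 h than at 0 h, beside 19.9% and 17.8% of all genes, with a median change of -0.05 against -0.01 for all genes (log2). CITED2, a coactivator that links AP-2 to p300, rose by 3.80 ± 0.33 (edgeR adjusted p = 1.47e-28), from 50.4 CPM at 0 h to 702 CPM at 42 h. KCTD1, an inhibitor of AP-2 activity, rose by 1.43 ± 0.30 (adjusted p = 1.22e-05), and CITED4 by 1.02 ± 0.30 (adjusted p = 0.0033). CITED1 was higher at 4 h (1.69 ± 0.47, adjusted p = 0.0080) and lower at 42 h (-2.88 ± 0.73, adjusted p = 0.0004). The number lower was 3 with library totals and 0 at a minimum of 2.5 CPM, and the number higher was 2 with limma on FPKM.

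With LDN, 1 of the 12 was lower (CITED1) and 3 were higher, beside 10.9% and 10.4% of all genes. KCTD1 rose with LDN by 0.25 ± 0.031 per step (edgeR adjusted p = 8.26e-05) and CITED4 by 0.11 ± 0.031 (adjusted p = 0.0251). CITED2 stayed at -0.01 ± 0.017 per step (adjusted p = 0.693), between 47.1 and 51.8 CPM in the libraries with BMP4. The number higher with LDN was 1 with DESeq2, with limma on FPKM, with untreated cells as a further step and without the 100 nM library. The number lower was 0 with limma, at a minimum of 2.5 CPM, with untreated cells as a further step, and without the 10, 100 or 300 nM library.

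Of 13 genes reported as AP-2 targets, 10 were tested, and 6 were higher and 2 lower at 42 h, beside 19.9% and 17.8% of all genes, with a median of 1.24 against -0.01 for all genes. CEBPA, a transcription factor, rose by 6.99 ± 0.37 (edgeR adjusted p = 1.57e-77), CYP11A1, the first enzyme of steroid synthesis, by 3.98 ± 0.39 (adjusted p = 6.76e-23) and KIT, a receptor tyrosine kinase, by 2.02 ± 0.31 (adjusted p = 6.07e-10). RET, also a receptor tyrosine kinase, fell by 3.09 on the log2 scale (adjusted p = 6.96e-15). ERBB2, the other gene that was lower, fell by 1.61 on the log2 scale, from 660 CPM at 0 h to 217 CPM at 42 h. With LDN, 9 were tested, and 2 were lower (ERBB3 and MCAM) and 1 higher (ERBB2), beside 10.9% and 10.4% of all genes. ERBB2 rose by 0.18 ± 0.010 per step, opposite in sign to TFAP2A and TFAP2C. The list gives no direction of regulation for its genes. KRT14, a keratin of basal epidermis, was at or under 3 counts in every library.

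Because AP-2 factors mark several lineages, the marker lists of those lineages are given beside them. Their counts stand against 19.9% of all genes called higher and 17.8% lower at 42 h, and 10.9% called lower with more LDN. A gene far under 1 CPM at 0 h entered the 42 h test only if later levels brought its mean to 1 CPM. HAND1, GATA3, ISL1, VTCN1, DLX5, TP63, DLX3, NANOS3, MSX1, NR2F2, SIX3 and EOMES were such genes. The counts of higher genes are therefore partly fixed by the minimum, in the lists further below too. Amnion markers had 10 of 10 higher at 42 h (median 7.13), with HAND1 at 16.81 ± 0.59, GATA3 at 11.01 ± 0.46, GATA2 at 9.03 ± 0.41 and ISL1 at 8.62 ± 0.40 (edgeR adjusted p of at most 1.57e-100), and 5 of 8 tested lower with LDN. Surface ectoderm markers had 6 of 6 tested higher (median 7.19), among them DLX5, TP63, DLX3 and GRHL3, while the basal keratins KRT5 and KRT14 were at or under 3 counts throughout. The summed level of the amnion list went from 279 and 379 CPM at 0 h to 11713 CPM at 42 h, and that of the surface ectoderm list from 56.0 and 58.7 to 707 CPM. Whether a listed gene is specific to its lineage was not tested, and no list was tested against another.

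The lists of the other lineages in which AP-2 factors are known had few members tested or members that went both ways. Trophoblast markers had 6 of 17 tested, with NR2F2 (5.79 ± 0.39, edgeR adjusted p = 7.66e-47) and HLA-G (1.78 ± 0.46, adjusted p = 0.0005) higher and SDC1 (-2.75 ± 0.37, adjusted p = 3.31e-12) lower at 42 h, and their sum was 143 to 166 CPM at 0 h and 147 at 42 h. CGB8, PSG1, PSG3, ELF5 and SIGLEC6 were at or under 3 counts in every library. Neural crest markers had 6 of 10 tested, with MSX1 (9.57 ± 0.41) and SOX9 (1.28 ± 0.31) higher and FOXD3 (-6.89 ± 0.48) and ETS1 (-1.72 ± 0.35) lower. Germ cell and naive markers had 3 of 9 tested and all 3 higher, namely NANOS3, KLF4 and SUSD2, with sums of 5.15 and 4.44 CPM at 0 h and 22.7 at 42 h. The naive marker KLF17 was at or under 3 counts.

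Primed pluripotency markers had 6 of 8 lower at 42 h (median -5.11), with PRDM14, ZIC2, NANOG and TDGF1 falling most. POU5F1 (-0.01 ± 0.36, edgeR adjusted p = 0.985) and LIN28A (-0.49 ± 0.37, adjusted p = 0.312) were not called. Primitive streak and mesoderm markers had 2 of 6 tested, with TBX6 higher (2.3 ± 0.40, edgeR adjusted p = 7.30e-08) and EOMES at 0.37 ± 0.61 (adjusted p = 0.679) at 42 h, and their sum was 3.16 and 2.97 CPM at 0 h and 9.24 at 42 h. EOMES, a T-box factor of the primitive streak, was called higher at 4 h (2.28 ± 0.52, edgeR adjusted p = 0.0005), and measured 0.253, 3.52 and 0.339 CPM at 0, 20 and 42 h. Neural markers had 2 of 5 tested, with OTX2 lower (-6.51 ± 0.46) and SIX3 higher (2.92 ± 0.55). The part of a change in cell makeup in the TFAP2 levels was not tested.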

How the data were processed

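RNA of GFP::SMAD4 RUES2 cells was measured in 7 time-series and 6 dose-response libraries, grouped by the GEO labels. Per the study's methods, Cutadapt trimming was followed by mapping with STAR 2.7.8a to GRCh38 (ENSEMBL; release not given in the sources used here) and by RSEM 1.3.3. The deposited expected counts are whole numbers per gene, not scaled for depth. The deposited FPKM were normalized by the authors for depth and gene length and served here for levels between genes and for an alternative.

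The members and gene lists were chosen with earlier results of these data known. The 5 features that are not human stayed in the totals and out of the tests. Genes of at least 1 mean CPM were fitted with edgeR 4.0.16 (TMM, quasi-likelihood test, Benjamini-Hochberg adjustment, threshold 0.05), the times as a factor, hours as a line, and the LDN dose step (0 to 4) over the 5 libraries with BMP4. Nothing says that the 0 h libraries came from separate cultures, so p-values measure the spread between these samples, which may be technical. The comparison of 0 nM LDN with untreated cells had no replicate and no test. Intervals are at 95%, exact Poisson or binomial, the limit for 0 counts is 3 counts, and both cover counting error only. PCR copies were not separated from molecules.

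The genes named are the members; the 5 genes most like TFAP2A and TFAP2C by Pearson's r of log2(CPM + 0.1); in each list up to 4 tested genes with the largest change at 42 h; and annotated genes that overlap a member. POU5F1, SOX2, LIN28A, VTCN1, ERBB2, ERBB3, MCAM and list members at or under 3 counts were named outside this rule after their values were seen. Positions came from GENCODE 44, where all 7 identifiers matched, and promoters from RefSeq (GRCh38.p14), where 6 of the 7 members matched by symbol.

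On simulated data with 200 changed genes, the test of 42 h against 0 h (15976 genes) found 47% of 2-fold and 98% of 4-fold changes with 6 false calls. The line in hours found 80% and 100% with 6 false calls. The LDN trend (14907 genes) found 47% and 97% with 3 false calls. Alternatives were DESeq2 size factors, library totals, no minimum or 2.5 CPM, DESeq2 1.42.0, limma 3.58.1 on log2(FPKM + 0.1), log time, SMAD4 level in place of dose, the untreated library as a further step, and each library left out. Scripts ran in R 4.3.3 and in Python 3.11.15 with scipy 1.17.1, pandas 2.3.3, matplotlib 3.10.9 and numpy 2.4.6.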

Additional observations from a re-analysis of the deposited data

How the results depend on the processing

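No paired analysis was possible because no groups shared 2 replicate numbers. The calls of all 5 tested members as higher than 0 h held under both other scalings and both other minimums at every time, with the loss of TFAP2E at 4 h under DESeq2 and limma given above. With 1 of the 0 h libraries left out no residual degree of freedom was left, and the changes are values without a test. The LDN trend of TFAP2A ranged from -1.07 to -1.58 and that of TFAP2C from -0.54 to -0.73 per step when 1 library was left out, both called each time, and both were called with SMAD4 level in place of the dose step. With no minimum level, 4 members were called lower with LDN, 1 higher from 12 h to 20 h and 1 higher from 28 h to 42 h (TFAP2B in both steps), and the change of TFAP2A-AS2 from 28 h to 42 h was 0.0023 in place of -0.06.

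The number of members with a called line in hours, 2 as reported, was 4 with DESeq2, 5 with limma on FPKM, 5 with log time, 4 with no minimum and 1 with library totals. It was 1 without either 0 h library (range 1 to 1) and 1 without 4 h, without 12 h, without 20 h or without 28 h, and 3 without 42 h, where TFAP2A-AS2 was called as well (adjusted p = 0.0395). The split of genes with a called line, 3072 rising and 2793 falling, was 2121 and 4069 with library totals, and that from 28 h to 42 h, 502 higher and 960 lower, was 418 and 1394. TFAP2A passed its half-rise at 12.7 h with library totals and 11.3 h in FPKM. The times after 0 h and the LDN doses have 1 library each, so variation between cultures is not measured there.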
